A study of Rattus norvegicus with 30 samples.

Results

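The promoter counts of the ipsilateral thalamus were compared between rats with traumatic brain injury (TBI) and sham-operated rats. All 10 thalamus libraries of the series were used, out of 30 libraries in all, chosen by the tissue and operation in their labels: 5 from sham-operated rats (rats 1 to 5) and 5 from TBI rats (rats 6 to 10). The comparison was then repeated without TBI rat 6, whose library stood apart from the other 9, which left 5 sham against 4 TBI libraries. The animals were adult male Sprague-Dawley rats. The TBI rats had received a lateral fluid-percussion injury, in which a pulse of fluid strikes the intact dura through an opening in the skull over the left parietal lobe. The sham-operated rats had the same anaesthesia, craniectomy and other surgery without the impact, so that both groups carried an opened skull. Tissue was dissected from coronal slices 3 months after the operation.

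DNA methylation at CpG sites is a covalent mark that is copied when cells divide, and dense methylation of a promoter usually accompanies a silent gene. In methyl-binding domain sequencing (MBD-seq), fragments of sheared DNA that carry methylated CpG sites are pulled out by a binding domain and only these are sequenced. The count of a promoter therefore depends on how many CpG sites it has, on how many of them are methylated and on how well the capture worked, and it is not a percentage of methylated sites. The thalamus relays sensory and motor signals to the cortex. After a lateral impact it is damaged at a distance from the blow, losing relay neurons connected to the injured cortex while microglia and astrocytes respond for months. In dissected tissue, a shift in the mixture of cells and a change of methylation within cells cannot be told apart.

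A promoter was a window from 5000 bp before to 200 bp after a transcription start site. The table held 22307 windows with 20196 Ensembl gene identifiers, of which 18658 had 1 window and 1538 had several, and 1879 windows repeated the counts of another window. The files did not pair the identifiers with gene symbols, and 0 of the 20196 were found in the gene table at hand. Genes of microglia, astrocytes, myelin, neurons, ion channels or the methylation machinery therefore have no values here, the label of the tissue was not checked against marker genes, and windows are named by identifier only. Total promoter counts were 2675177 to 3234475 in the sham and 3062450 to 4227800 in the TBI libraries. No pair of libraries of the same group agreed within sampling noise (lowest chi-square per degree of freedom 2.33).

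The library labelled thalamus of TBI rat 6 had the most unequal capture of the 10. Its 10 highest windows held 37.8% of its promoter counts, against 9.29% to 26.4% in the other 9 libraries. Windows that repeat the counts of another were each included, such as those of ENSRNOG00000048890 with 320830 counts each in TBI rat 6. Its 5% most captured windows held 52.8%, against 25.6% to 32.6% in the other TBI and 27.4% to 39.8% in the sham libraries. No count at all was found in 196 windows of this library (0.879%), while the other 9 had 28 to 51 such windows. It was the lowest of the 10 libraries in 34.3% of 21894 tested windows and the highest in 31.6%. TBI rats 7 and 10 were lowest in 12.1% and 12.3%, and the remaining 7 libraries in 4.23% to 7.50%.

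**Figure D1:**
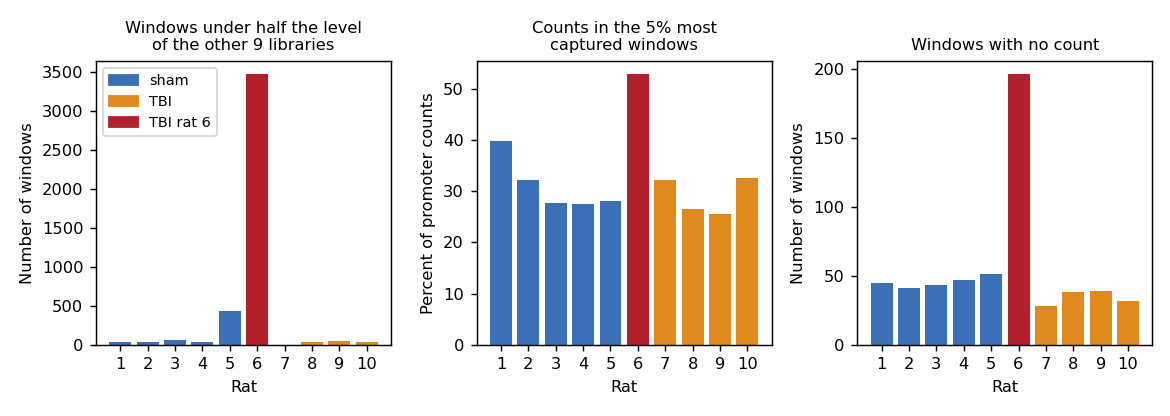
Each bar is 1 thalamus library, with the rat number on the horizontal axis and sham in blue, TBI in orange and TBI rat 6 in red. The panels give the number of windows more than 2-fold below the mean of the other 9 libraries, the percent of promoter counts in the 5% most captured windows, and the number of windows with no count. TBI rat 6 is highest in all 3, at 3467 windows, 52.8% and 196 windows.

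Levels were given in CPM (counts divided by the library size and multiplied by 1000000) scaled by the trimmed mean of M-values (TMM), and each library was set against the mean of the other 9 on the log2(CPM + 0.5) scale. TBI rat 6 was more than 2-fold below that mean in 3467 windows (15.8%) and more than 2-fold above it in 564 (2.58%). Its median absolute deviation was 0.477, compared with 0.133 to 0.209 in the other libraries. The deviation followed the level of the window. In the 10% of windows least captured in the other rats the median deviation was −1.15, and in the 10% most captured it was 0.595. The window farthest below held 0 counts in TBI rat 6 and 22 to 47 in the others. The window farthest above held 3786 counts against 512 to 1206.

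The other libraries tilted less, and not all in 1 direction, set against a mean that included TBI rat 6. The difference between the median deviations of the 10% least and 10% most captured windows, called the tilt below, was −1.75 in TBI rat 6. TBI rats 7, 8, 9 and 10 had tilts of 0.858, 0.237, 0.303 and 0.515. Sham rats 1, 2, 3 and 4 had tilts of 0.257, 0.328, 0.0663 and 0.353, whereas sham rat 5 had −0.602. TBI rat 6 and sham rat 5 thus gave fewer counts in sparsely captured promoters, and TBI rats 7 and 10 gave more.

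**Figure D2:**
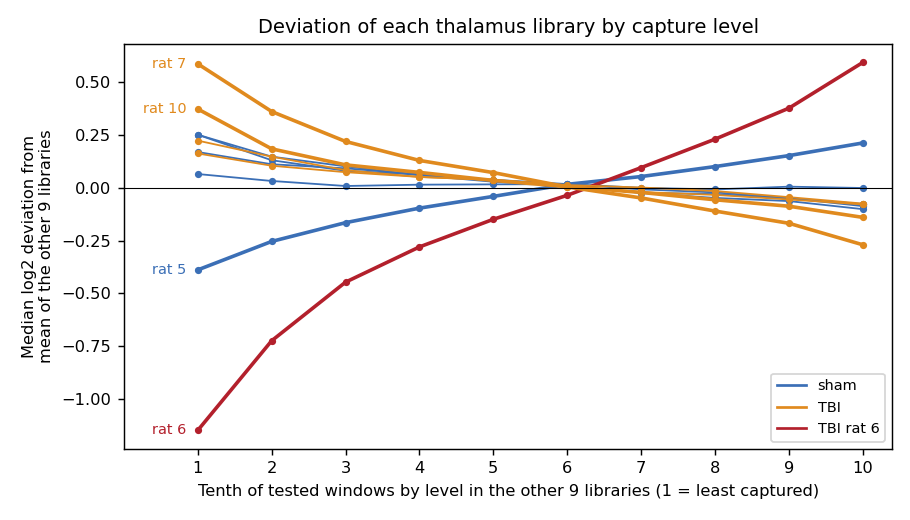
Each line is 1 thalamus library (sham blue, TBI orange, TBI rat 6 red). The horizontal axis gives the tested windows in 10 equal steps of level in the other 9 libraries, and the vertical axis the median log2 deviation from their mean. TBI rat 6 runs from −1.15 to 0.595 and sham rat 5 from −0.389 to 0.213, while TBI rat 7 runs the opposite way, from 0.588 to −0.270.

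The tissue label of the TBI rat 6 library was not the one its profile was closest to. Over 18658 identifiers with 1 window, its Spearman correlation with the mean hippocampus profile of the other rats was 0.941, above the 0.936 with the mean thalamus profile. The other 9 thalamus libraries correlated at 0.964 to 0.984 with the thalamus and at 0.851 to 0.908 with the hippocampus profile. The cortex library of rat 6 was also closest to the hippocampus, at 0.966 against 0.896 for the cortex, and its hippocampus library was closest to its own tissue at 0.973. By the same measure, 9 of 10 thalamus, 9 of 10 hippocampus and 8 of 10 cortex libraries were closest to the tissue on their label. The cortex library of TBI rat 10 counts among these, but it correlated with the cortex at only 0.707, the lowest own-tissue value of all libraries. The hippocampus library of sham rat 5 was closest to the cortex (0.952 against 0.866), and the cortex library of sham rat 4 to the hippocampus (0.971 against 0.918). These correlations are across promoters, which share base composition and capture, and describe the libraries only. By the paper, the thalamus libraries were sequenced on another instrument than those of the cortex and hippocampus. Whether tissue, capture or sequencing set this profile apart was not tested.

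The question of the comparison was whether TBI left a lasting change of promoter methylation in the thalamus. With all 10 libraries, no promoter passed the test. Of 21894 windows, 0 (0.0%) had an adjusted p under 0.05 by the quasi-likelihood test of edgeR with Benjamini-Hochberg adjustment, and the smallest adjusted p was 0.9998. The DESeq2 test and limma voom with sample weights also called 0. At an unadjusted p under 0.05 there were 198 windows (0.904%), 92 higher (0.42%) and 106 lower (0.484%) in TBI. Evenly spread p-values would put a share of 0.05 of the windows there, so this was well below that share. An unadjusted p under 0.01 was found in 14 windows, and the smallest was 0.00121. The groups did not overlap in 60 windows (0.274%), with TBI higher in 24 (0.11%) and lower in 36 (0.164%).

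Leaving out TBI rat 6 raised the number of small p-values without giving a call. The share under 0.05 rose to about the 0.05 that evenly spread p-values would give. Of 21978 windows, 0 (0.0%) passed the adjusted threshold in the same edgeR test, and the smallest adjusted p was 0.8238. DESeq2 and voom again called 0. The unadjusted p was under 0.05 in 1267 windows (5.76%), 677 higher (3.08%) and 590 lower (2.68%) in TBI, under 0.01 in 186 and under 0.001 in 12. The groups did not overlap in 385 windows (1.75%), with TBI higher in 200 (0.91%) and lower in 185 (0.842%). Of the 198 windows of the full comparison, 134 (67.7%) were among the 1267 with the same direction, which was 10.6% of the longer list. The comparisons share 9 libraries, so that the overlap is a description of the lists.

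**Figure D3:**
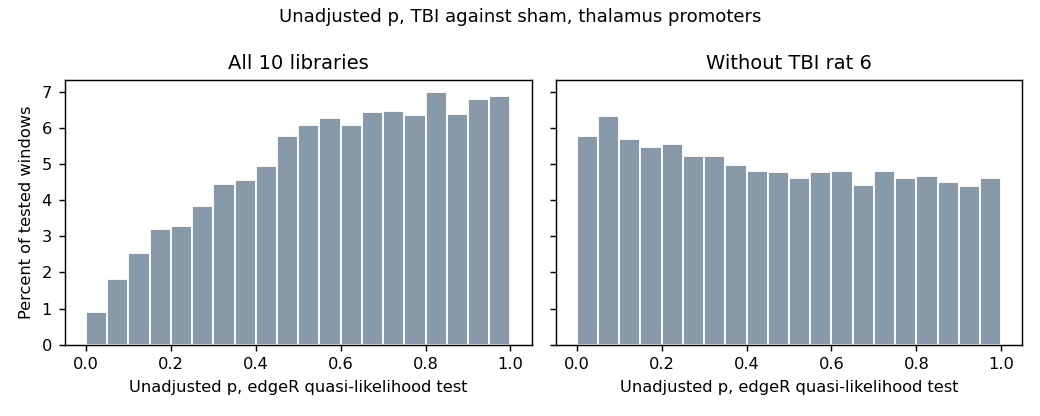
The bars give the percent of tested windows in each step of 0.05 of the unadjusted p, with all 10 thalamus libraries on the left and without TBI rat 6 on the right. The first bar is at 0.904% with TBI rat 6 and at 5.76% without it, and on the left the bars climb toward a p of 1.

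The spread among the TBI rats depended on rat 6. The biological coefficient of variation, the spread between rats beyond counting error as edgeR estimates it, was 0.184 with all libraries and 0.116 without TBI rat 6. The median coefficient of variation of a window was 14.3% among the sham rats, 21.6% among the TBI rats and 12.9% among the 4 TBI rats other than rat 6. Counting error alone gave 10.0% at the median mean count of 99.1. The central log2 fold changes (5th to 95th percentile, TBI over sham) ran from −0.219 to 0.274 with all libraries and from −0.226 to 0.387 without TBI rat 6.

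A p above the threshold does not show that promoters were equal, and the intervals give the sizes that remain. With all 10 libraries the 95% interval of the fold change lay wholly within 2-fold in either direction for 20497 windows (93.6%) and within 1.5-fold for 15254 (69.7%). Without TBI rat 6 these were 21051 (95.8%) and 17322 (78.8%). The median interval reached 1.28-fold to either side of the estimate in the full comparison and 1.21-fold without TBI rat 6. Precision was lowest where capture was sparse. In the least captured 10% of windows, with a median of 5.73 CPM, the interval lay within 2-fold in 46.8% of windows in the full comparison, against 98.1% in the most captured 10%, with a median of 86.3 CPM.

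Without TBI rat 6, the direction of the small p-values followed the capture level. Sparsely captured promoters were more often higher in TBI and strongly captured ones lower. In the least captured 10% (median 6.20 CPM) the median log2 fold change was 0.232, and 193 windows with an unadjusted p under 0.05 were higher and 3 lower. In the most captured 10% (median 82.6 CPM) the median was −0.114, with 11 windows higher and 197 lower. In the full comparison these medians were 0.0780 and 0.0514, with 12 higher and 0 lower in the least captured 10% and 0 higher and 22 lower in the most captured 10%.

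This difference by level was not told apart from the spread between rats in a test of 5 sham against 4 TBI libraries. With TBI rat 6 left out of the groups, the tilt was 0.0805 ± 0.398 (SD, n = 5) in sham and 0.478 ± 0.279 (SD, n = 4) in TBI. An exact two-sided permutation test gave p = 0.143, and 0.317 after adjustment over 6 library measures. TBI rat 6 stayed in the mean that each library was set against. With offsets by level (loess), which remove the tilt by construction, 0 windows were called and 874 were under 0.05 unadjusted, of which 450 were higher and 424 lower. The least captured 10% then held 54 higher and 46 lower windows, and the most captured 10% 64 and 33. Scaling by library totals in place of TMM gave 1175 windows higher and 63 lower, so the split into higher and lower rested on the scaling. The part of the libraries' tilt in single windows was not tested.

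**Figure D4:**
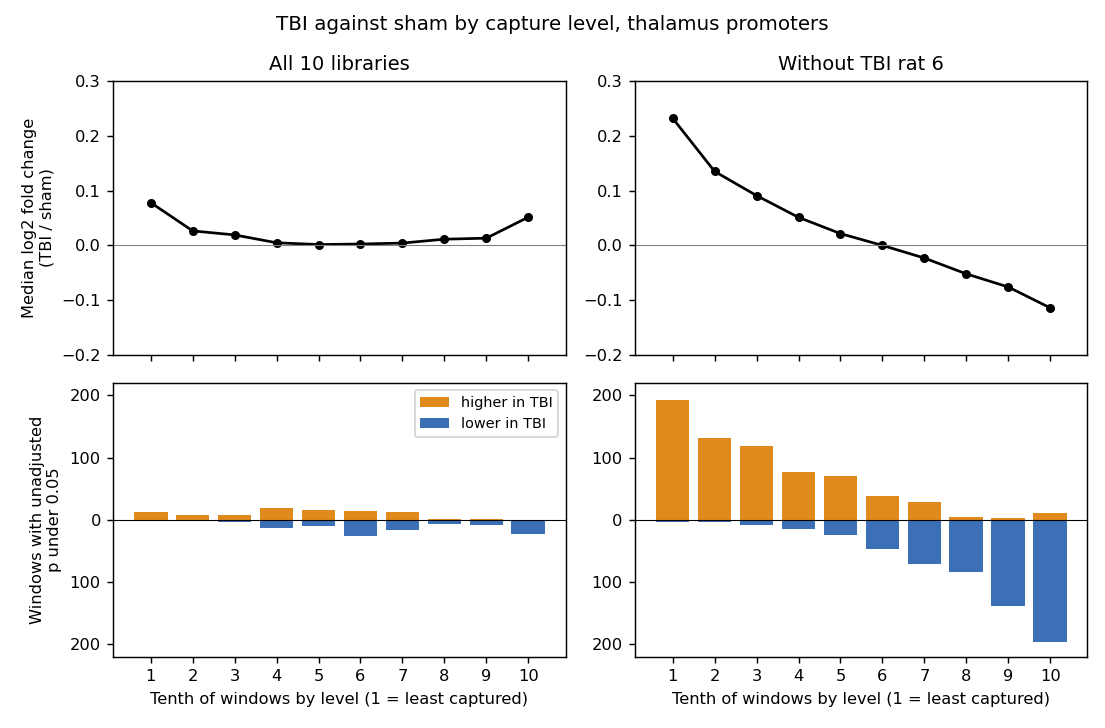
The upper panels give the median log2 fold change (TBI over sham) and the lower panels the number of windows with an unadjusted p under 0.05, higher in TBI upward and lower downward, in 10 equal steps of level from least (1) to most (10) captured. With all 10 libraries (left) the medians stay between 0.00 and 0.08, and without TBI rat 6 (right) they fall from 0.232 to −0.114 while the bars turn from higher to lower.

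Of the 6 library measures, 1 separated the groups once TBI rat 6 was left out. Windows with no count made up 0.204% ± 0.0172 (SD, n = 5) in sham and 0.154% ± 0.0233 (SD, n = 4) in the other TBI libraries. The numbers were 45, 41, 43, 47 and 51 in sham rats 1 to 5 and 28, 38, 39 and 32 in TBI rats 7 to 10, and did not overlap. The exact two-sided permutation test gave p = 0.00794, the smallest this design allows, and 0.0476 after adjustment over the 6 measures. TBI rat 6, left out, had 196 windows with no count, and with it the TBI mean was the higher one, at 0.299%. This measure is among those that set TBI rat 6 apart, so the p depends on leaving that rat out and is no independent test. The other 4 TBI libraries had more counts on average than the sham libraries (3353623 against 3010344). Every library was then thinned to the smallest effective size of all 10, which was that of TBI rat 6 (2756124). The mean difference without TBI rat 6 was nearly the same, −11.0 windows against −11.1 without thinning. The sham libraries then spread from 41.6 to 64.9 expected windows and overlapped the 30.0 to 47.3 of the 4 TBI libraries, and the exact permutation p was 0.0873. With all 10 libraries, none of the 6 measures passed, and the smallest adjusted p, for the promoter total, was 0.476.

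The windows with the smallest unadjusted p in each direction were taken from both comparisons, so that their values are a description of what the ranking chose. In the full comparison the highest-ranked window with more counts in TBI belonged to ENSRNOG00000021110. Its TMM-scaled levels were 20.8, 18.2, 25.1, 24.2 and 20.5 CPM in sham rats 1 to 5 and 29.0, 33.3, 29.8, 29.6 and 26.8 CPM in TBI rats 6 to 10. All 5 TBI rats lay above all 5 sham rats, TBI rat 6 among them. The log2 fold change was 0.45 with an SE of 0.13, an unadjusted p of 0.00404 and an adjusted p of 0.9998 in the edgeR test. In the same rats the log2 fold change was 0.43 (SE 0.26) in the hippocampus and 0.16 (SE 0.19) in the cortex, where the groups overlapped. It was 0.53 (SE 0.26) without the hippocampus library of sham rat 5, and 0.18 (SE 0.20) without the cortex libraries of rats 4 and 6. Neither was called.

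The window of ENSRNOG00000004208 had the smallest unadjusted p of the full comparison and fewer counts in TBI. It was at 14.3, 35.3, 28.3, 19.1 and 29.9 CPM in sham rats 1 to 5 and at 11.6, 17.7, 14.1, 13.3 and 12.3 CPM in TBI rats 6 to 10. The TBI rats lay close together, and sham rat 1 fell within their range. The log2 fold change was −0.88 (SE 0.23, edgeR unadjusted p = 0.00121, adjusted p = 0.9998). In the hippocampus the log2 fold change was −0.82 (SE 0.38, adjusted p = 0.9997), where sham rats ranged from 11.3 to 58.6 CPM and TBI rats from 11.9 to 26.1 CPM. Without the hippocampus library of sham rat 5 it was −1.05 (SE 0.31), which was not called. In the cortex it was −0.36 (SE 0.25), and −0.33 (SE 0.21) without the cortex libraries of rats 4 and 6.

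Without TBI rat 6, the highest-ranked window with more counts in TBI was that of ENSRNOG00000023687, a sparsely captured promoter. Its levels were 2.39, 5.70, 1.45, 2.39 and 5.04 CPM in sham rats 1 to 5 (5 to 17 counts) and 8.57, 9.73, 6.16 and 11.8 CPM in TBI rats 7 to 10 (25 to 43 counts). TBI rat 6, left out, was at 1.81 CPM, among the sham rats. The log2 fold change was 1.41 without TBI rat 6 (SE 0.34, edgeR unadjusted p = 0.000242, adjusted p = 0.8238) and 1.18 with it (SE 0.46). The exact tests with a shared dispersion, described below, called this window (adjusted p = 0.000206 with TMM and 0.000828 with library totals). In the hippocampus the log2 fold change was −0.65 (SE 0.50), and −0.19 (SE 0.48) without the hippocampus library of sham rat 5, which stood at 16.0 CPM while the other 4 sham rats lay between 5.25 and 6.93 CPM. In the cortex a single TBI rat, rat 10, stood at 168 CPM and sham rat 1 at 63.2 CPM, with all others at 5.99 to 16.6 CPM. The cortex library of TBI rat 10 was the one that correlated at only 0.707 with its own tissue.

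The smallest p of the comparison without TBI rat 6 was that of ENSRNOG00000048670, a strongly captured promoter with a level above 89.7% of the tested windows. Sham rats 1 to 5 were at 83.2, 91.2, 78.3, 84.3 and 105 CPM, and TBI rats 7 to 10 at 64.2, 43.3, 75.1 and 51.7 CPM. TBI rat 6 was lower still at 30.1 CPM, so the groups did not overlap with or without it. Its library was the one closest to the hippocampus profile, and in the hippocampus of the same rat this window stood at 38.5 CPM. Whether its low level goes with TBI or with that profile was not tested. The log2 fold change was −0.59 without TBI rat 6 (SE 0.13, edgeR unadjusted p = 8.56e-05, adjusted p = 0.8238) and −0.73 with it (SE 0.19). The exact test with TMM called it as well (adjusted p = 0.0107), and that with library totals did not. In the hippocampus the log2 fold change was −1.01 (SE 0.37, edgeR adjusted p = 0.9997), but −0.35 (SE 0.20) without the hippocampus library of sham rat 5, which stood at 185 CPM while the other 4 lay between 32.0 and 78.3 CPM. In the cortex it was −0.37 (SE 0.44), and −0.21 (SE 0.32) without the cortex libraries of rats 4 and 6. The groups overlapped in both of these tissues.

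**Figure D5:**
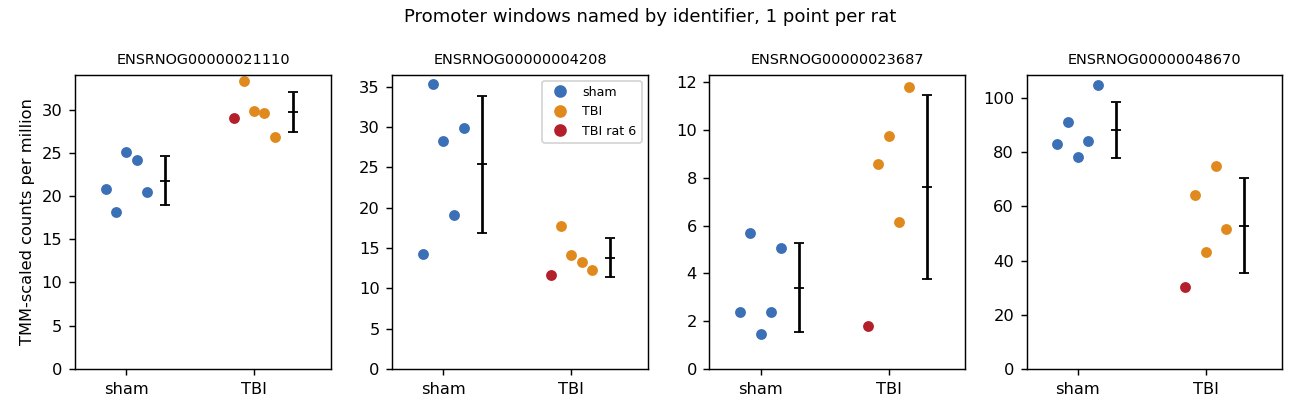
Each point is the TMM-scaled level (CPM) of a promoter window in the thalamus of 1 rat, sham in blue, TBI in orange and TBI rat 6 in red, with the mean and SD of all 5 rats of a group beside the points. Groups are apart in the windows of ENSRNOG00000021110 and ENSRNOG00000048670, sham rat 1 lies among the TBI rats for ENSRNOG00000004208, and TBI rat 6 lies at 1.81 CPM among the sham rats for ENSRNOG00000023687.

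An exact test that gives every window the same dispersion gave calls where the window-wise test did not. Scaled by library totals, it called 0 windows (0.0%) with all 10 libraries and 22 (0.1%) without TBI rat 6, 18 higher and 4 lower. Scaled by TMM, it called 3 windows (0.0137%) with all 10 libraries, 1 higher and 2 lower, and 24 (0.109%) without TBI rat 6, 17 higher and 7 lower. The 17 higher windows were sparsely captured, with a median mean count of 20.1, and the 7 lower ones were well captured, with a median of 348. Among the 24, which were chosen for their difference, the groups did not overlap in 10, beside 385 (1.75%) of all windows. Their unadjusted quasi-likelihood p ranged from 8.56e-05 to 0.0840. TBI rat 6, which took no part in these calls, lay below all sham rats in 13 of the 17 windows called higher and above all of them in 1. It also lay below all sham rats in 5 of the 7 windows called lower. Since this library deviated from the others as a whole, its place in these windows is no test of the calls. Over all 21978 windows it lay below every sham rat in 36.9% and above in 33.9%. In the least captured 10% it was below in 65.6%, and in the most captured 10% it was below in 7.32%.

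Leaving out a further TBI rat changed the picture again. Without TBI rats 6 and 9, the edgeR quasi-likelihood test called 5 of 22019 windows, 1 higher and 4 lower, each with an adjusted p of 0.0469. That of ENSRNOG00000048670 was among those called lower. In the other called windows the left-out TBI rat 9 lay within the sham range. For ENSRNOG00000050808 it was at 120 CPM, and the sham rats were at 94.8 to 161 CPM. The windows of ENSRNOG00000050808 and ENSRNOG00000050740, both called lower, had nearly the same levels, such as 37.7 and 39.8 CPM in TBI rat 8. Without TBI rats 6 and 7, 0 windows were called and 720 (3.27%) had an unadjusted p under 0.05.

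The thalamus effect was compared with that of the hippocampus and cortex of the same rats by the interaction of tissue and TBI, over 18658 identifiers with 1 window each. By the paper, the thalamus libraries were sequenced on another instrument than those of the other tissues. Tissue and instrument therefore cannot be told apart here. Against the hippocampus, the edgeR test called 0 of 18462 promoters (0.0%) at the adjusted threshold of 0.05, and 323 (1.75%) had an unadjusted p under 0.05. With rat as a replicate block, which uses the pairing of tissues within a rat, the calls stayed at 0 and the unadjusted count was 145 (0.785%). Against the cortex, 0 of 18578 (0.0%) were called and 147 (0.791%) had an unadjusted p under 0.05, or 256 (1.38%) with the block. DESeq2 called 0 in both. Without rat 6 in either tissue the unadjusted counts were 827 (4.47%) and 381 (2.05%), again with 0 calls. Leaving out the hippocampus library of sham rat 5 gave 458, and leaving out the cortex libraries of rats 4 and 6 gave 316, also with 0 calls. A TBI effect particular to the thalamus was thus not detected for any promoter, and equal effects in the tissues were not shown either.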

How the data were processed

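The authors captured methylated DNA from 3 brain regions of 5 sham-operated and 5 TBI rats by MBD-seq, aligned the reads to the rat Rnor_5.0 genome (STAR, spliced alignment disallowed), and made counts for each promoter window with Repitools in R 3.1.0 (per the labels and the paper). By the paper, cortex and hippocampus libraries were run on an Illumina Genome Analyzer IIx and thalamus libraries on an Illumina HiSeq. The paper states this for RNA and refers back to it for MBD-seq. The deposited promoter values are whole-number counts per library without normalization, which were used as deposited. Of the tables, the promoter counts of the 3 tissues and the thalamus gene body counts were used.

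Windows were filtered with filterByExpr of edgeR 4.0.16 in R 4.3.3 (minimum count 10, minimum total count 15), scaled by TMM, and tested by quasi-likelihood. The Benjamini-Hochberg adjustment ran over all tested windows, and an adjusted p under 0.05 was called. Fold changes carry 95% intervals from the same fit. For library measures, groups were compared in an exact permutation test, two-sided, over the 252 possible assignments (126 without TBI rat 6), for which 0.00794 is the smallest p. Alternatives were computed with DESeq2 1.42.0, limma 3.58.1, other scalings and filters, an exact test with 1 dispersion, and each rat left out. Tables and figures were made with Python 3.11.15, pandas 2.3.3, SciPy 1.17.1 and matplotlib 3.10.9.

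The libraries, gene lists and comparisons were chosen with earlier results of these data known. The rule for named genes asked for lists of genes and the top-ranked windows with a symbol. Since no identifier matched a symbol, the lists gave no values, and the top-ranked window in each direction of both comparisons was named instead, after the values were seen. The tissues of a rat came from the same animal. Deviations from the group mean in the thalamus correlated across promoters with those of the same rat with a median r of −0.0582 for the hippocampus and 0.116 for the cortex, and r was over 0.1 in 2 and 5 of 10 rats. P-values of the comparisons within a tissue measure the spread between single rats, each with 1 library per tissue. The interaction tests without the replicate block treated both libraries of a rat as independent, so their p-values mix the spread between and within rats. Promoter sequences were not used here, since windows were not tied to genes or positions.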

Additional observations from a re-analysis of the deposited data

Results flagged for a closer look

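In 26 groups of 5 libraries (library measures and the named windows, in sham and in TBI), 6 values lay far enough from the other 4 to be marked as outlying by Dixon's criterion, a criterion that marks about 1.3 of 26 by chance. All 6 came from the thalamus library of TBI rat 6, which had been set aside by the choice of comparisons because its profile stood apart, so the values describe that library and are no test of the choice. They were the share of counts in its 5% most captured windows (52.8%, others 25.6% to 32.6%), the share of windows with no count (0.879%, others 0.126% to 0.175%), the median absolute log2 deviation (0.477, others 0.133 to 0.209) and the TMM factor (0.652, others 1.02 to 1.12). The tilt between the 10% least and 10% most captured windows was −1.75 (others 0.237 to 0.858). The total of its gene body counts, a table that no comparison of TBI with sham used, was 161737, against 70404 to 86517 in the other TBI libraries.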

How the results depend on the processing

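Of 21 alternatives to the full comparison, 20 gave 0 calls and the exact test with TMM scaling (added after seeing the data) gave 3. The 198 windows with an unadjusted p under 0.05 became 57 with library totals (3 higher, 54 lower), 333 with loess offsets, 937 with voom and 303 with the exact test and TMM. Leaving out each rat gave 146 to 1267 windows and 0 calls, where 1267 was without TBI rat 6 and the most without any other rat was 262. Of 20 alternatives without TBI rat 6, 17 gave 0 calls, and the exact test gave 22 with library totals and 24 with TMM. Leaving out a further rat gave 0 to 5 calls, with 5 only without TBI rat 9. The unadjusted p was then under 0.05 in 720 windows (3.27%, without TBI rat 7) to 1745 (7.92%, without TBI rat 9). The cause of these moves was not tested.

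In the interaction with the hippocampus, 323 promoters (1.75%) had an unadjusted p under 0.05. They became 145 (0.785%) with the replicate block (paired by rat) and 200 (1.08%) with library totals. Without rat 6 there were 827 (4.47%), and without the hippocampus library of sham rat 5 458 (2.47%). In that with the cortex, 147 (0.791%) became 256 (1.38%) with the replicate block and 26 (0.14%) with library totals. Without rat 6 there were 381 (2.05%), and without the cortex libraries of rats 4 and 6 316 (1.7%). The 458 and 316 are from alternatives added after seeing the data. In these 2 interactions 0 promoters were called with or without the block.

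Differences in library measures (TBI minus sham) that reversed without TBI rat 6 were the share in the 5% most captured windows (2.87 to −1.84 percentage points), windows with no count (0.095 to −0.050 percentage points), the TMM factor (−0.0442 to 0.0399) and the tilt (−0.0471 to 0.398, a measure added after seeing the data). Thinned to equal effective size, an alternative also added then, the difference in windows with no count without TBI rat 6 went from −11.1 to −11.0 and lost its call. The 4 named windows kept their direction under all alternatives run, with log2 fold changes of 0.38 to 0.50 for ENSRNOG00000021110, −1.02 to −0.72 for ENSRNOG00000004208, 1.14 to 1.66 for ENSRNOG00000023687 and −0.74 to −0.47 for ENSRNOG00000048670. Alternatives for genes named by symbol were not run, since no symbol could be matched. Depth limits the sparsely captured windows most, and windows with small or local changes of methylation inside 5000 bp would not be resolved.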
